A study of Mus musculus with 6 samples.

Results

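The genes described here encode enzymes that make or inactivate prostaglandins and leukotrienes, an activating protein of leukotriene synthesis and a leukotriene receptor. They were listed by name, 9 in all: Ptgs1, Ptgs2, Ptges, Hpgd, Alox5, Alox5ap, Lta4h, Ltc4s and Ltb4r1. Of these, 7 had an array entry carrying their symbol alone, with 1 entry each, among 14860 genes in the table, and Ptgs1 and Ltb4r1 were not analysed here. The list was drawn up with treated and control values of these mice already known. The differences of its members are therefore given as a description, with no test, and tests are kept for other genes of the pathway. The list of those other genes was also drawn up with earlier results of these data known, so their counts are a description too.

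RNA came from spleen cells enriched with magnetic beads for the surface protein Sca-1, and each of 6 mice was measured on its own Affymetrix exon array. All mice, controls included, were NRASD12/BCL-2 double transgenic animals of the FVB/N background, carrying a mutant NRAS and the survival protein BCL-2 as a model of acute myeloid leukaemia. The 3 control mice were untreated, per the series description, and 3 mice received ABT-737, an inhibitor of BCL-2, BCL-XL and BCL-W, at 75 mg/kg in 3 doses a week for 33 days. Age, sex, the promoters of the transgenes and the use of a vehicle were not stated in the labels used here.

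Prostaglandins and leukotrienes are short-lived lipid signals made from arachidonic acid, which phospholipases free from membranes. On the prostaglandin side, the cyclooxygenases encoded by Ptgs1 and Ptgs2 make prostaglandin H2, which terminal synthases such as the one encoded by Ptges turn into single prostaglandins, and the dehydrogenase encoded by Hpgd inactivates them. On the leukotriene side, 5-lipoxygenase (Alox5), helped by its activating protein (Alox5ap), makes leukotriene A4, which is turned into leukotriene B4 by the hydrolase encoded by Lta4h or into leukotriene C4 by the synthase encoded by Ltc4s. Leukotriene B4 attracts neutrophils through the receptor encoded by Ltb4r1, and neutrophils, macrophages and mast cells are known sources of these lipids.

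Levels below are the authors' array signals on a log2 scale, where a difference of 1 is a doubling. Array medians ran from 6.86 to 7.14. Control mouse 3 stood apart in the Y-linked genes Kdm5d and Eif2s3y, at 4.77 and 4.23, against at least 8.05 and 9.87 in every other mouse. The transcript of Sca-1 itself was not analysed here. Of other progenitor genes, Kit ran from 7.83 to 8.46 and Cd34 from 8.89 to 10.25 over the 6 mice. All 8 measured B cell markers, all 8 T cell markers and all 12 neutrophil markers also lay above the dimmest 30% of genes, so the RNA held transcripts of several blood cell types besides primitive cells. In such bulk RNA, more cells of a type and more RNA per cell cannot be told apart.

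Across the 7 measured genes, the treated means of Ptgs2, Ptges, Alox5 and Alox5ap were higher, those of Lta4h and Ltc4s were close to the controls, and that of Hpgd was slightly lower. Positive differences numbered 6 of the 7, where 44% of all genes had one. The median of the 7 differences, treated minus control, was 0.81, and over all 14860 genes it was -0.02. All 3 treated mice lay above all 3 controls in 4 of the 7 genes. Among all genes tested that held for 6.14%, and for 7.19% all treated mice lay below all controls. Nothing is read from that contrast, since it was known when the genes were chosen. Over all genes, 0% passed an adjusted p of 0.05 by limma, the smallest adjusted p being 0.114, while 10.2% had an unadjusted p under 0.05. Without treated mouse 1, 510 genes passed the adjusted threshold, and without any other single mouse at most 1 did.

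Promoter sequences of 6 of the 7 measured genes were found in RefSeq for the build GRCm38.p6. They are shown for Ptgs2, Ptges and Alox5, the genes with a listed promoter whose treated mice all lay above the controls, so that they can be compared. Each runs 5′ to 3′ from 250 bases before the annotated start to 50 bases after it, on the gene's own strand. Capitals mark matches, on either strand, to motifs picked after the sequences had been read: TTGCGCAA of C/EBP factors, GGGCGG of the GC box, the E-box CACGTG, the cyclic AMP half-site ACGTCA and its full form TGACGTCA and the AP-1 form TGANTCA.
Ptgs2 (chr1:150099781-150100080, + strand): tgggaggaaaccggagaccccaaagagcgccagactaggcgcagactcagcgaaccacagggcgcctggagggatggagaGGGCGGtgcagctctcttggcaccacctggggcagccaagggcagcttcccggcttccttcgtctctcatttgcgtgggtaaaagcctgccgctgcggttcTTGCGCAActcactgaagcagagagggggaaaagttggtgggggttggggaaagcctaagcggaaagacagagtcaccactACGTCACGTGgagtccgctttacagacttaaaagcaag
Ptges (chr2:30903248-30903547, - strand): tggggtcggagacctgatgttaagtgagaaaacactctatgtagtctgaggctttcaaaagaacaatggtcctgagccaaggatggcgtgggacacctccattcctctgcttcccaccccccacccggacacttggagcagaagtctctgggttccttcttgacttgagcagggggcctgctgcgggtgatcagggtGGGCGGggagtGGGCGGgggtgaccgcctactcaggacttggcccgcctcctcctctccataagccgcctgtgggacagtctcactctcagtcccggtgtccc
Alox5 (chr6:116461129-116461428, - strand): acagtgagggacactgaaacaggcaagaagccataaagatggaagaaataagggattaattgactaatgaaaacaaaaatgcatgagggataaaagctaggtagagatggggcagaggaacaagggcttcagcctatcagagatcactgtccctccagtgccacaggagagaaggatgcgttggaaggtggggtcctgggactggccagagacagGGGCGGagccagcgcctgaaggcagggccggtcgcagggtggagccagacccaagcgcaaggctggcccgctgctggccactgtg

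The Ptgs2 window held TTGCGCAA, a sequence present in 0.183% of 32851 promoter windows of the same length. This motif was picked after the window had been read, so nothing is read from its rarity. The same window also held ACGTCA and CACGTG, which overlap each other there and occur in 7.51% and 7.15% of windows. Both lie after the annotated start, beginning at bases 263 and 267 of the window. GGGCGG occurred in the Ptgs2 and Alox5 windows and in 2 places in that of Ptges, and in 35.7% of all windows. No match to TGACGTCA or TGANTCA was found in these 3 windows, against 1.79% and 7.81% of all windows. Of the other listed genes, the Hpgd window held GGGCGG, and those of Lta4h and Ltc4s held none of the motifs. The Ptgs2 and Alox5 windows thus shared only the GC box among the motifs searched.

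Ptgs2, the inducible cyclooxygenase, stood at 7.96, 8.04 and 7.20 in control mice 1, 2 and 3 and at 9.41, 10.14 and 9.11 in treated mice 1, 2 and 3. The groups did not overlap, and the gap between the highest control and the lowest treated mouse was 1.07. The group means were 7.73 ± 0.46 and 9.55 ± 0.53 (SD, n = 3 each), a difference of 1.82 (SE 0.32) or 3.53-fold. Treated mouse 2 was the highest and control mouse 3 the lowest.

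Ptges, which encodes the inducible prostaglandin E synthase that works downstream of Ptgs2, stood at 6.41, 6.0 and 6.32 in the controls and at 6.49, 6.91 and 7.76 in the treated mice. The groups were separated by only 0.08, the distance from control mouse 1 to treated mouse 1, and treated mouse 3 was far above the rest. The means were 6.24 ± 0.22 and 7.05 ± 0.65 (SD, n = 3 each), a difference of 0.81 (SE 0.31) or 1.75-fold. Without treated mouse 3 the difference was 0.46. Ptges and Ptgs2 thus differed in order among the treated mice, as Ptges was highest and Ptgs2 lowest in treated mouse 3.

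Hpgd, whose product inactivates prostaglandins, stood at 6.89, 6.50 and 6.69 in the controls and at 6.45, 7.13 and 5.96 in the treated mice. The treated mice lay on both sides of the controls, with mouse 2 the highest and mouse 3 the lowest of all 6. The difference of the means was -0.18 (SE 0.28, 95% interval from -0.85 to 0.49), and it was 0.10 without treated mouse 3. In that mouse the highest Ptges and the lowest Hpgd occurred together.

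**Figure D1:**
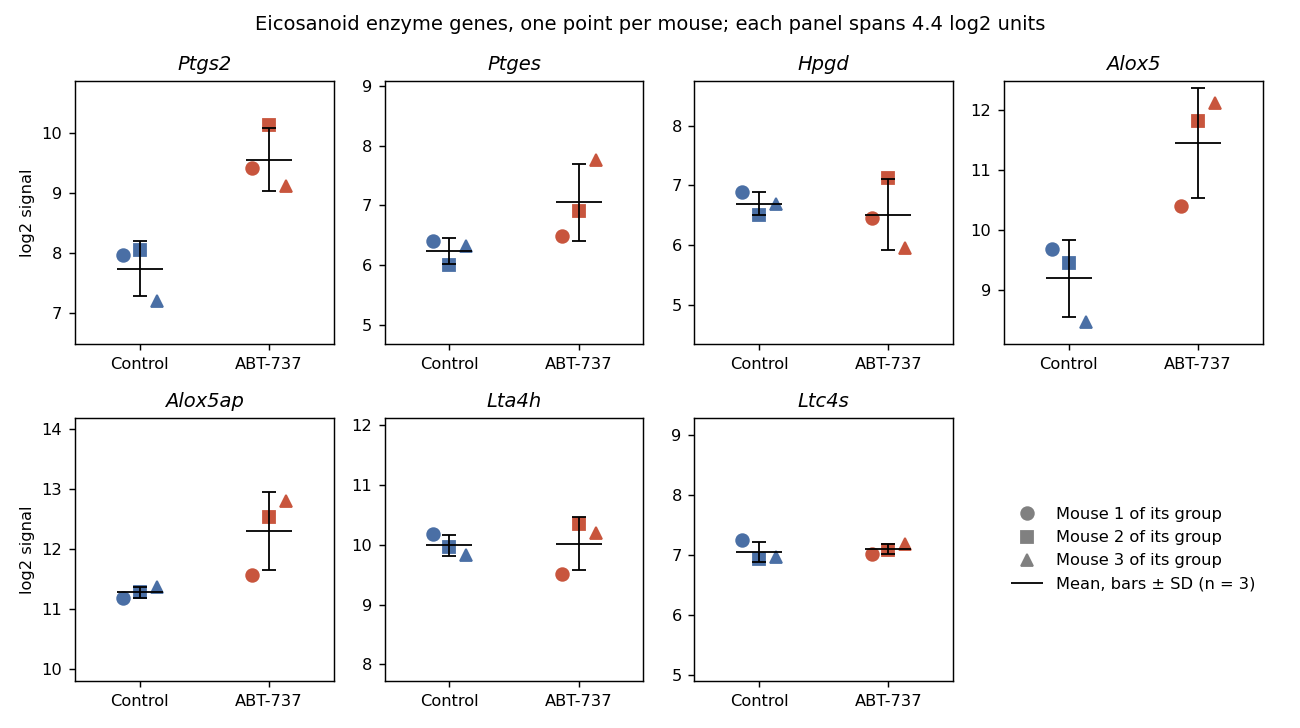
Log2 signal (vertical axis, 4.4 units in every panel) of the 7 measured genes in each of 3 control and 3 treated mice, with the group mean and SD as a bar. Treated mice lie above all controls in Ptgs2, Ptges, Alox5 and Alox5ap, and the groups overlap in Hpgd, Lta4h and Ltc4s.

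Alox5, which encodes 5-lipoxygenase, had the largest difference of the 7. It stood at 9.68, 9.44 and 8.46 in the controls and at 10.40, 11.82 and 12.12 in the treated mice. Treated mouse 1 was only 0.72 above the highest control, while treated mice 2 and 3 were well above it. The means were 9.19 ± 0.65 and 11.45 ± 0.92 (SD, n = 3 each), a difference of 2.25 (SE 0.49) or 4.77-fold. Control mouse 3, in which Y-linked genes were low, was the lowest, and without it the difference was 1.89.

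Alox5ap, which encodes the membrane protein that presents arachidonic acid to 5-lipoxygenase, stood at 11.18, 11.28 and 11.36 in the controls and at 11.56, 12.54 and 12.81 in the treated mice. The controls lay within 0.18 of each other, while the treated mice spanned 1.25. Treated mouse 1 was 0.20 above the highest control. The means were 11.27 ± 0.09 and 12.30 ± 0.66 (SD, n = 3 each), a difference of 1.03 (SE 0.30) or 2.04-fold. Alox5 and Alox5ap placed the treated mice in the same order, but only Alox5 was low in control mouse 3.

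Lta4h and Ltc4s, which act on the product of 5-lipoxygenase, showed no such separation. Lta4h, whose product makes leukotriene B4, stood at 10.18, 9.96 and 9.83 in the controls and at 9.51, 10.34 and 10.20 in the treated mice. Treated mouse 1 was the lowest of the 6 and treated mouse 2 the highest, and the means differed by 0.03 (SE 0.23, 95% interval from -0.51 to 0.56). Ltc4s, whose product joins leukotriene A4 to glutathione, stood at 7.25, 6.94 and 6.97 in the controls and at 7.02, 7.09 and 7.18 in the treated mice. The treated mice all fell inside the range of the controls, and the difference was 0.04 (SE 0.13, 95% interval from -0.25 to 0.34). The Lta4h and Ltc4s differences turned negative when arrays were quantile normalized or centred on their medians. The intervals allow changes of either sign, so these values do not show that the genes were unaffected.

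**Figure D2:**
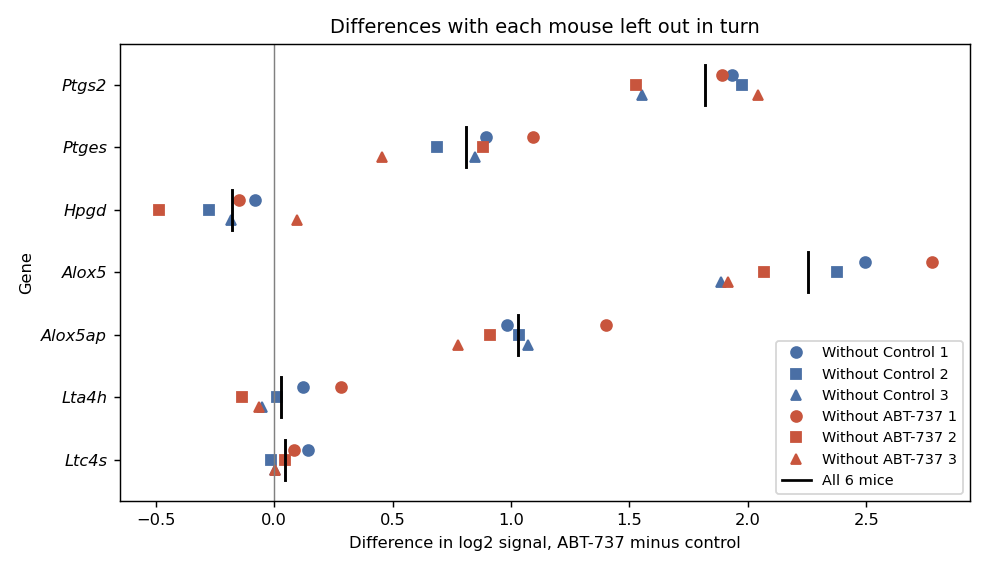
Difference in log2 signal, treated minus control, for each measured gene with all 6 mice (black line) and with each mouse left out in turn (points, blue for controls and red for treated mice). Ptgs2 stays between 1.53 and 2.04 and Alox5 between 1.89 and 2.78, while Hpgd, Lta4h and Ltc4s fall on both sides of 0.

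Treated mouse 1 was nearest to the controls in Alox5, Alox5ap and Ptges and was not in Ptgs2. Relative to the control mean it stood at 0.29 for Alox5ap, 0.25 for Ptges and 1.21 for Alox5, and at 1.68 for Ptgs2. In treated mouse 2 these values were 1.27, 0.67, 2.63 and 2.41, and in treated mouse 3 they were 1.54, 1.52, 2.93 and 1.38. The excess over the controls was thus smallest in mouse 3 for Ptgs2 and in mouse 1 for Alox5, Alox5ap and Ptges.

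Markers of neutrophils were higher in the same mice. Of 12 measured neutrophil markers of 14 listed, all 12 had higher treated means and 9 did not overlap between groups, from Ngp at 0.32 to Cxcr2 at 2.93. Over all genes 44% had a positive difference and 6.14% were separate and higher. The mean log2 signal of the neutrophil markers ran from 10.41 to 11.18 in the controls and from 11.89 to 12.88 in the treated mice. Like Alox5 and Ptgs2, it was lowest in control mouse 3. Relative to the control mean it stood at 1.01, 2.0 and 1.99 in treated mice 1, 2 and 3. Monocyte and macrophage markers, 10 of 11 with higher treated means, ran from 9.41 to 10.23 in the controls and from 9.76 to 10.77 in the treated mice. Markers of early granulocytes, all 5 measured, had lower treated means, from Ctsg at -0.73 to Elane at -0.32, with overlapping groups in each. Erythroid markers, 7 of 7 with higher treated means, had a median difference of 0.87. Relative to the control mean they stood at -0.70, 1.27 and 2.06 in treated mice 1, 2 and 3. That is the order of Alox5, Alox5ap and Ptges, but here treated mouse 1 lay below every control, and in those genes above. B cell markers, 0 of 8 with a higher treated mean and a median of -0.55, stood at 0.05, -1.03 and -0.85. The part of these cells in the differences of Ptgs2, Ptges, Alox5 and Alox5ap was not tested.

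Mast cells and basophils make prostaglandin D2 and leukotriene C4. Of their 8 measured markers, 2 had higher treated means, Hdc and Cma1, against 44% of all genes, and the median difference was -0.10. Fcer1a, Ms4a2, Tpsb2 and Cma1 lay in the dimmest 30% of genes, at or below 5.78, while Cpa3, Mcpt8, Gata2 and Hdc lay above them. Cpa3 and Gata2 differed by -0.36 and -0.17. The list mean, Hdc included, ran from 6.25 to 6.68 in the controls and from 6.26 to 6.80 in the treated mice, so the groups overlapped. Mcpt8, a basophil protease, had the lowest difference at -0.89, and Hdc, the histamine-forming enzyme, which neutrophils can also express, the highest at 2.02. Megakaryocyte and platelet markers, from cells rich in cyclooxygenase and thromboxane synthase, differed by a median of 0.31 over 7 measured genes, 6 with higher treated means. The groups were separate in 0 of the 7, against 6.14% of all genes separate and higher and 7.19% separate and lower.

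**Figure D3:**
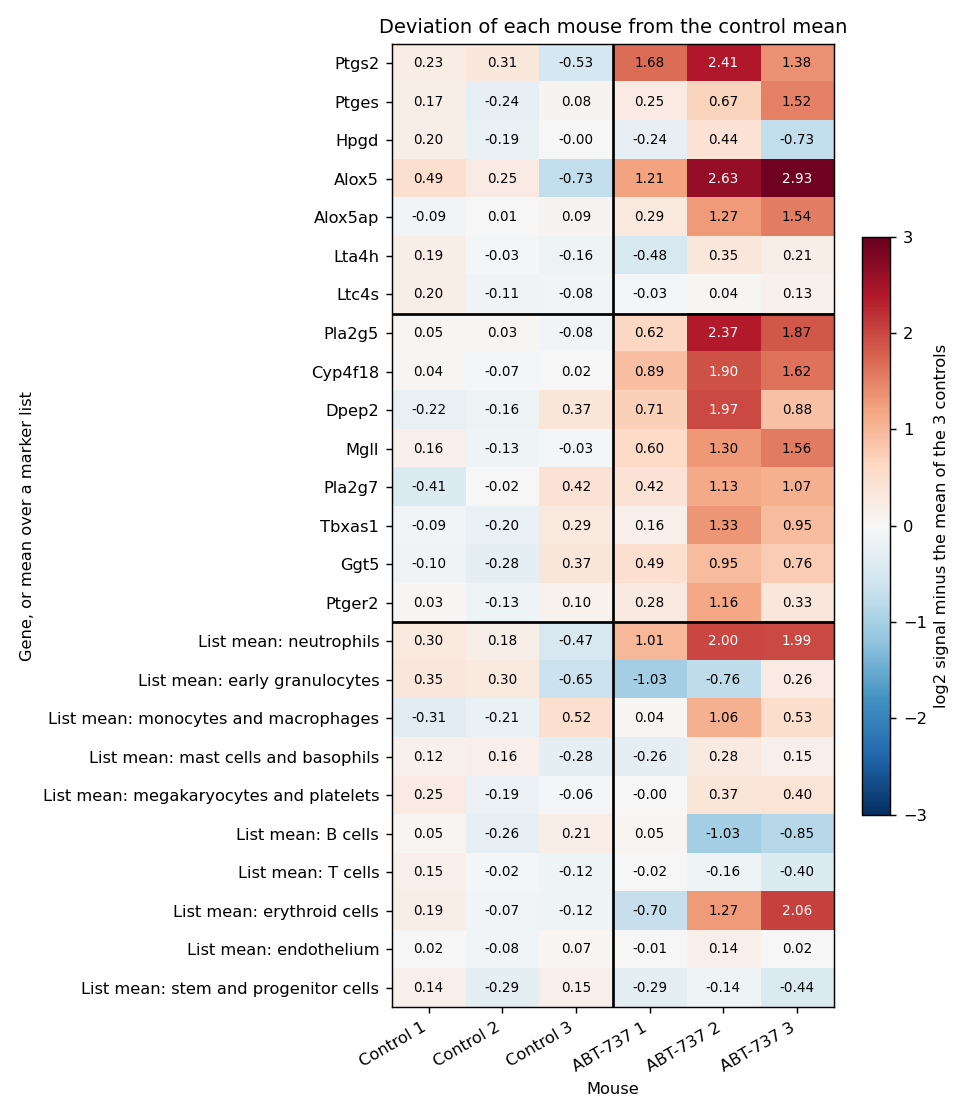
Log2 signal of each mouse (columns) minus the mean of the 3 controls, for the 7 measured genes, for 8 other pathway genes with an unadjusted p under 0.05 and for the means of 10 marker lists (rows); red is higher and blue lower. Treated mice 2 and 3 are red for Alox5, Alox5ap and the neutrophil list, and treated mouse 1 is paler in most of these rows.

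The rest of the pathway was examined through a list of 62 genes, of which 54 had an entry and 10 of those lay in the dimmest 30%. It asked whether other steps, from arachidonic acid release to receptors, differed after treatment. Of the 54, 35 had higher and 19 lower treated means, with a median difference of 0.10. None of the 54 passed an adjusted p of 0.05 by limma over all genes, the smallest adjusted p being 0.241. When treated mouse 1 was left out, 6 of the 54 passed, as did 510 of all 14860 genes. At an unadjusted p under 0.05 by limma there were 8 higher and 0 lower, against 5.75% of all genes higher and 4.45% lower. Each of the 8 was also at least 1.5-fold. With that rule added, 4.44% of all genes passed, counting either direction. The groups were separate in 7 of the 54, with the treated mice above the controls in 6 and below them in 1, against 6.14% and 7.19% of all genes. This list, too, was chosen with earlier results of these data known, so these counts are a description.

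Lipases and related genes of arachidonic acid release included 3 of those 8, and the 11 measured had a median difference of 0.20. Pla2g5, a secreted phospholipase A2, stood at 5.70, 5.68 and 5.57 in the controls and at 6.27, 8.02 and 7.52 in the treated mice. The groups did not overlap, and the difference was 1.62 (SE 0.40, adjusted p = 0.321 by limma). Every control value of Pla2g5 lay below 5.78, the upper bound of the dimmest genes, and every treated value above it. The size of its difference thus rests on dim control signals and is uncertain. Mgll, the monoacylglycerol lipase that frees arachidonic acid from an endocannabinoid, stood at 6.93, 6.64 and 6.74 against 7.37, 8.07 and 8.33. Its groups did not overlap either, and the difference was 1.15 (SE 0.24, adjusted p = 0.278). Pla2g7, which breaks down platelet-activating factor, differed by 0.88 (SE 0.26, adjusted p = 0.374), and control mouse 3 and treated mouse 1 shared the value 11.36. Pla2g4a, the cytosolic phospholipase A2 usually taken to feed both branches, differed by 0.25 (SE 0.30) with overlapping groups and is named outside the naming rule.

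The 8 measured terminal prostanoid synthases had a median difference of -0.02, and 2 had higher treated means. Tbxas1, which encodes thromboxane synthase, stood at 7.34, 7.23 and 7.72 in the controls and at 7.59, 8.76 and 8.38 in the treated mice. Treated mouse 1 lay below control mouse 3, and the difference was 0.81 (SE 0.30, adjusted p = 0.432 by limma). Hpgds, the prostaglandin D synthase of blood cells, was the other, at 0.26 (SE 0.25, adjusted p = 0.790), and it ran from 0.028 without treated mouse 1 to 0.48 without treated mouse 2. The remaining 6 lay between -0.10 and -0.01.

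Among 10 prostanoid receptor genes the median difference was 0.08. Ptger2, which encodes the EP2 receptor of prostaglandin E2, stood at 8.15, 7.99 and 8.22 in the controls and at 8.40, 9.28 and 8.45 in the treated mice. The groups were separate, with treated mouse 2 well above the others, and the difference was 0.59 (SE 0.24, adjusted p = 0.466 by limma). Leaving out treated mouse 2 brought it to 0.31. Ptgir, the prostacyclin receptor, differed by 0.87 (SE 0.37, adjusted p = 0.492), and at 7.24 treated mouse 1 fell inside the control range. Without treated mouse 2 it differed by 0.52 and without treated mouse 1 by 1.33.

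On the leukotriene side, a breakdown gene and a pair of conversion genes had an unadjusted p under 0.05 by limma. Cyp4f18, which in mouse neutrophils inactivates leukotriene B4 by hydroxylation, stood at 9.19, 9.08 and 9.17 in the controls and at 10.04, 11.05 and 10.77 in the treated mice. The controls lay close together and every treated mouse was well above them, a difference of 1.47 (SE 0.25, adjusted p = 0.241 by limma). Dpep2 and Ggt5 encode enzymes of the steps that follow leukotriene C4 synthesis, a dipeptidase and a gamma-glutamyl transferase. Dpep2 stood at 8.39, 8.45 and 8.98 against 9.32, 10.58 and 9.49, a difference of 1.19 (SE 0.34, adjusted p = 0.358). Ggt5 stood at 6.97, 6.79 and 7.44 against 7.56, 8.02 and 7.83, a difference of 0.74 (SE 0.20, adjusted p = 0.335). Neither gene overlapped between groups. Ptgr1, a reductase that inactivates leukotriene B4 and prostaglandins, differed by 0.23 (SE 0.29, adjusted p = 0.852), and its groups overlapped.

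Other lipoxygenases and leukotriene receptors held no gene at an unadjusted p under 0.05 by limma. Alox15, a lipoxygenase of macrophages and eosinophils, stood at 8.28, 8.63 and 7.90 in the controls and at 8.21, 10.84 and 9.42 in the treated mice. Treated mouse 1 lay within the controls, and the difference was 1.22 (SE 0.60, adjusted p = 0.549). Leaving out treated mouse 2 brought it to 0.55, and leaving out treated mouse 1 to 1.86. Cotl1, an actin-binding protein that also binds 5-lipoxygenase, differed by 0.34 (SE 0.16, adjusted p = 0.549). Of 5 receptors measured, Cysltr2, a receptor of cysteinyl leukotrienes, differed by 0.17 (SE 0.24, adjusted p = 0.869) and Gpr17 by -0.19 (SE 0.11, adjusted p = 0.631), with overlapping groups in Cysltr2 and Gpr17.

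**Figure D4:**
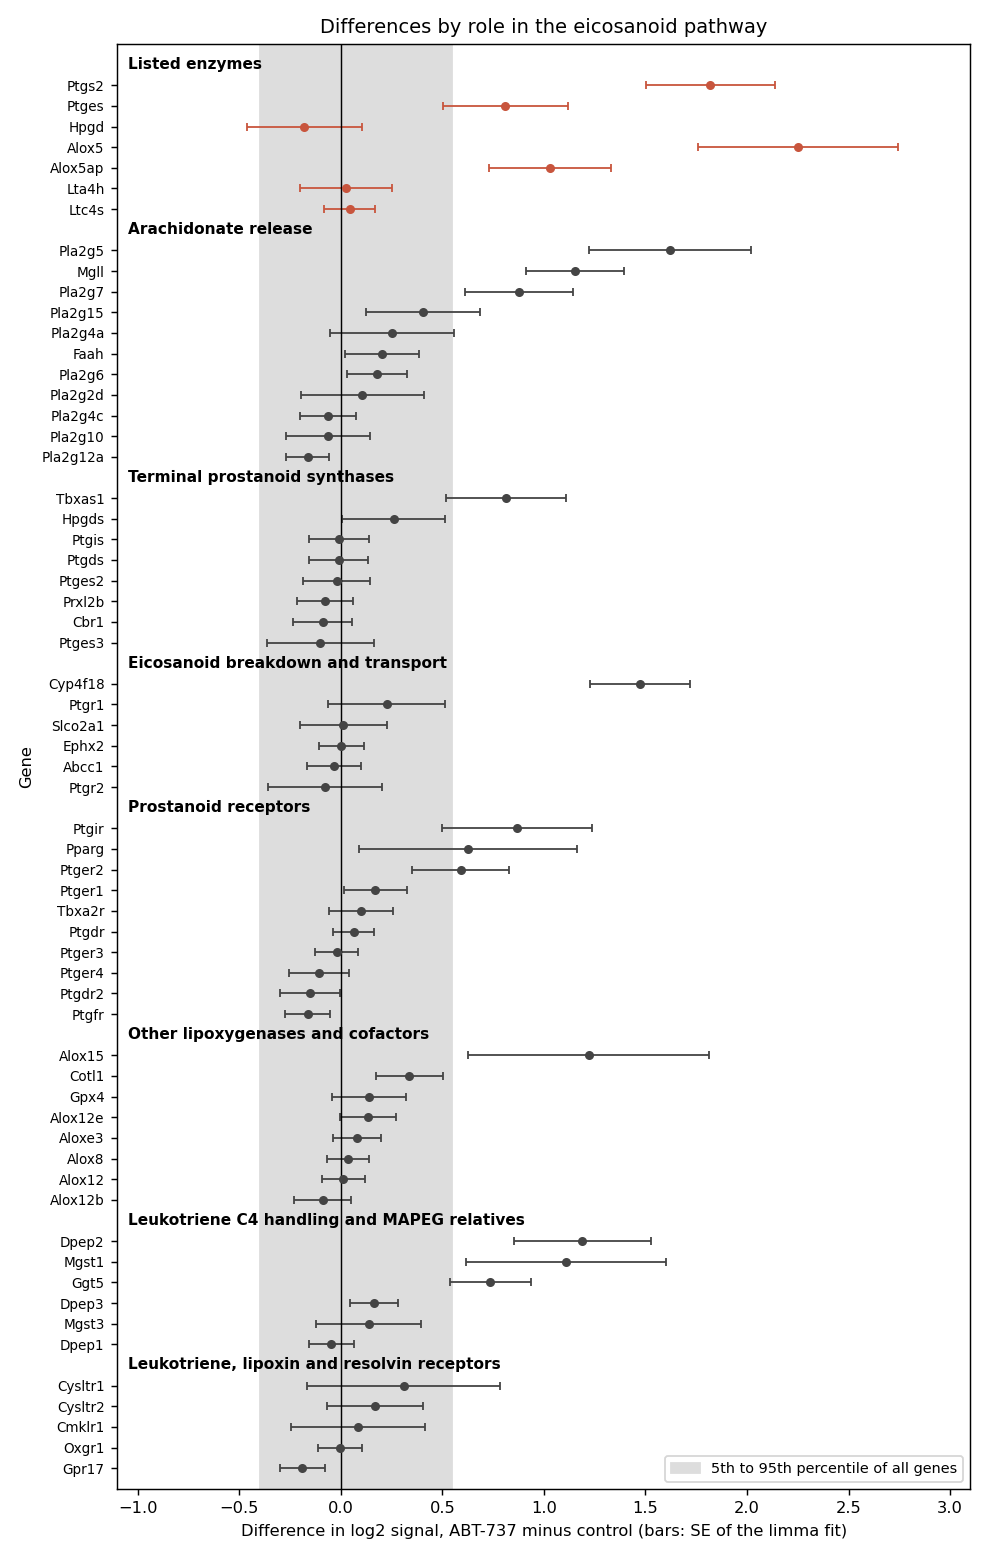
Difference in log2 signal, treated minus control (horizontal axis, bars are SE), for the 7 measured genes (red) and 54 other pathway genes (dark), grouped by role; the grey band holds the 5th to 95th percentile of all genes, from -0.40 to 0.55. Alox5 and Ptgs2 lie farthest to the right, and most synthases, receptors and other lipoxygenases lie inside the band.

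Genes nearest in level to the most variable listed genes were sought over the 6 mice. Nearness was the root mean square difference, in log2 units, after centring each gene on its own mean. This likeness rests on 6 arrays and takes in the contrast between groups, so it is a description. Nearest to Alox5 were Ankrd22 at 0.14, Raet1e and Slfn4 at 0.16, Myo1d at 0.20 and AA467197 at 0.21. Nearest to Ptgs2 were Arg2, a mitochondrial arginase, at 0.25, Tas2r143 at 0.28, the cystine exchanger gene Slc7a11 at 0.32, Csf3r, the receptor of granulocyte colony-stimulating factor, at 0.33 and Tas2r135 at 0.34. Nearest to Alox5ap were Zfhx3 at 0.10, Lgals3, which encodes galectin-3, Vsir and App, each at 0.12, and Pfkfb4 at 0.13. The 3 sets shared no gene.

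The listed genes were not each other's nearest neighbours. Ptgs2 lay 0.65 from Alox5 and 0.69 from Alox5ap, and Alox5 lay 0.76 from Alox5ap. Alox5ap had rank 174 among the genes nearest to Alox5, and Alox5 had rank 12265 among those nearest to Alox5ap. The measure takes in the size of a difference as well as the order of the mice. Lta4h and Ltc4s, at 0.55 and 0.62, thus lay nearer to Alox5ap than Alox5 did. Ptges lay nearer to Alox5ap, at 0.26, than to Ptgs2, at 0.84. The treated mice were ordered 3, 2, 1 from highest to lowest in Alox5, Alox5ap and Ptges, and 2, 1, 3 in Ptgs2.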

How the data were processed

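Biotin-labelled RNA from the Sca-1-enriched splenocytes of 6 mice was run on exon arrays of Affymetrix, per the labels. Values were deposited as log2 signals between 2.6 and 14.3, a scale inferred from the numbers themselves. The authors used genome build mm9, per the submitters' processing notes, and their normalization, summarisation and filters are not given in the sources used here. No background signal was used, and the number of arrays limits precision.

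Of 23332 entries, the platform annotation gave 1 symbol to 14996, several to 1019 and none to 7317. By Entrez number 14941 symbols were matched to GRCm38.p6, and 0 changed. For 135 genes with more than 1 entry, the highest-mean entry was kept, leaving 14860 genes.

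Groups followed the treatment labels, and mice were numbered in accession order. Differences were fitted with limma 3.58.1 (lmFit, eBayes) in R 4.3.3, and p-values were adjusted over all genes by Benjamini and Hochberg. The 6 arrays come from separate animals. The fit was tested on simulated data. Figures used matplotlib 3.10.9 in Python 3.11.15. The listed genes, pathway roles and marker lists were chosen with earlier results of these data known. In the pathway, each role's 2 smallest p values and every gene at an unadjusted p under 0.05 were named. For likeness, the 5 nearest genes of the 3 most variable listed genes were named. Extremes were named only for the neutrophil list, the early granulocyte list and the mast cell and basophil list. The other mast cell and basophil markers, Kit and Cd34 were named outside that rule. Alternatives were quantile normalization, median centring, leaving out the dimmest 30% of genes, trended or robust variance, array weights, the mean of entries, a term for the mouse with low Y-linked signal, looser calls and leaving out each mouse.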

Additional observations from a re-analysis of the deposited data

How the results depend on the processing

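Precision is limited by 3 arrays a group and by unknown normalization. Ptgs2, Ptges, Alox5 and Alox5ap kept a positive difference under every alternative run. Their groups did not overlap, so leaving out or weighting mice could not reverse the sign. Variance settings, the cut of dim genes and the mean of entries leave these differences as they were. Median centring shifts all genes alike, and array medians ran only from 6.86 to 7.14, so it could not reverse these differences either. Quantile normalization and median centring gave 1.75 and 1.73 for Ptgs2 and 0.77 and 0.72 for Ptges. They gave 2.18 and 2.17 for Alox5 and 0.95 and 0.94 for Alox5ap. With each mouse left out in turn, differences ran from 1.53 to 2.04 for Ptgs2, 0.46 to 1.09 for Ptges, 1.89 to 2.78 for Alox5, 0.78 to 1.40 for Alox5ap, -0.49 to 0.10 for Hpgd, -0.14 to 0.28 for Lta4h and -0.013 to 0.14 for Ltc4s, and the median of the 7 from 0.46, without treated mouse 3, to 1.09, without treated mouse 1. Hpgd turned to 0.10 without treated mouse 3, and Lta4h to -0.053 with control mouse 3 left out, to -0.14 with treated mouse 2 left out and to -0.07 with treated mouse 3 left out. Ltc4s turned to -0.013 without control mouse 2. Quantile normalization gave -0.029 for Lta4h and -0.044 for Ltc4s, and median centring -0.06 and -0.043. These scalings moved the median of all genes from -0.02 to -0.06 and -0.11. The covariate for the mouse with low Y-linked signal, which is the same as leaving out control mouse 3, gave -0.053 for Lta4h. Genes called over all genes numbered 14 without the dimmest 30%, which tests fewer genes, 2 with array weights, 660 under the looser rule and from 0 to 510 with each mouse left out, with 1 without treated mouse 3 and 510 without treated mouse 1. Pathway genes called numbered 8 under the looser rule and 6 without treated mouse 1, and 0 without any other mouse. The 6 were Cyp4f18, Pla2g5, Mgll, Ptgir, Tbxas1 and, named after its values were seen, Mgst1, at adjusted p from 0.00337 to 0.0257 by limma. The cause of the change without treated mouse 1 was not tested. Of the 15 named pathway genes, Cysltr2 and Ptgr1 turned to -0.08 and -0.032 without treated mouse 2, and ran up to 0.33 and 0.56 without treated mouse 1. No paired analysis was possible because no number in the labels is shared between control and treated animals.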
